A study of Danio rerio with 4 samples.

Results

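Collagen leaves the cell only after it has been folded and modified, and 10 zebrafish genes for these steps were followed in control and MZ*tulp3* embryos at 2 dpf. They were taken by their symbols from a table of 31388 genes. The list holds the collagen chaperone genes *serpinh1a* and *serpinh1b*, the prolyl 4-hydroxylase genes *p4ha1a*, *p4ha1b* and *p4ha2*, the lysyl hydroxylase genes *plod1a*, *plod2* and *plod3*, and the crosslinking genes *loxa* and *loxl2b*. They were chosen on the difference between the groups in these same libraries. Their fold changes and calls are therefore a description and not a test of the list. In these libraries *serpinh1a*, *serpinh1b*, *plod2* and *loxl2b* had less signal in each MZ*tulp3* library than in either control library. The same was true of 23.3% of all 14674 genes kept for testing. *plod2* had 0 reads in both MZ*tulp3* libraries and was kept through its control libraries alone. The prolyl 4-hydroxylase genes, *plod1a* and *plod3* overlapped between the groups, and *loxa* had 0 reads throughout.

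Whole embryos were sequenced after enrichment for poly(A) RNA, as 2 control libraries (wild type) and 2 MZ*tulp3* libraries, each group as biological replicates 1 and 2. MZ*tulp3* embryos lack *tulp3* from mother and embryo alike, and only embryos with severe ventral curvature of the body were taken, so genotype and curvature cannot be told apart. The line of these mutants carries the CRISPR/Cas9 allele *uf3* on an AB/TL background together with the transgene *li1Tg*, which marks parts of the pronephros and the exocrine pancreas with EGFP. Whether the sequenced controls carried *li1Tg*, and how many embryos went into a library, is not given in the sources used here. In whole embryos, fewer cells of a type and less RNA per cell cannot be told apart.

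Fibrillar procollagen chains are made in the endoplasmic reticulum, where prolyl 4-hydroxylases modify prolines so that the triple helix is stable at body temperature, and lysyl hydroxylases prepare lysines for sugar attachment and crosslinks. Hsp47, the product of the *serpinh1* genes, binds the folded triple helix and travels with it towards the Golgi. Outside the cell, lysyl oxidases turn lysines and hydroxylysines into the aldehydes from which crosslinks form. In zebrafish embryos much collagen is made by the notochord, the skin with the fin folds, and the early cartilage. The roles given here are those of the mammalian proteins unless zebrafish is named.

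The values are normalized counts, that is, reads per gene divided by 1 size factor per library. Between 22589725 and 29735214 reads were counted per library. The mitochondrial genes took 57.9% and 41.0% of them in control replicates 1 and 2, against 52.6% and 71.1% in the mutants, which left 8607137 to 14520032 reads for all other genes. The targeted gene *tulp3* had 36 reads in control replicate 2 and 0 reads in each other library, so it checks the labels only weakly. All 11 epidermal, 12 skeletal muscle and 9 neuron markers in the table had reads. MZ*tulp3* replicate 2 stood apart by its oocyte markers, with a summed 819 normalized counts against 116 to 133 in the other libraries, of which *zp2.1* gave 405 there and 0 elsewhere. Where 0 reads were counted, up to 3 are allowed (1.98 to 3.54 normalized counts, depending on the library), a limit that covers counting error only. Of the genes with a mean of at least 20 normalized counts that were kept for testing, 17.1% had 0 reads in exactly 1 library.

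Both chaperone genes encode Hsp47. For *serpinh1b* (ENSDARG00000019949), control replicate 1 had 1744 normalized counts and replicate 2 had 3038, while the mutant replicates had 629 and 945. Both MZ*tulp3* libraries lay below both control libraries, and the lower control library was still well above the higher MZ*tulp3* library. The means were 2391 ± 915 and 787 ± 224 (SD, n = 2 each), a log2 fold change of -1.58 (standard error 0.38), or 2.98-fold lower. Fold changes were fitted on log2 of the normalized count plus 2, a scale that understates the change of low genes. These values rest on 549 to 4601 reads, so that counting error was at most 4.27% of the value in any library, while the SD between control replicates was 38.2% of their mean. Leaving out 1 library gave log2 fold changes from -1.98 (without control replicate 1) to -1.18 (without control replicate 2).

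The paralogue *serpinh1a* (ENSDARG00000075954) stood at 579 and 364 normalized counts in control embryos, against 236 and 205 in mutants. Again the groups did not overlap, and the MZ*tulp3* replicates were close to each other. The means were 472 ± 151 and 221 ± 21.6 (SD, n = 2 each), a log2 fold change of -1.05 (standard error 0.49), or 2.08-fold lower. It ranged from -0.72 without control replicate 1 to -1.39 without control replicate 2. The copies differed between the control replicates: replicate 2 had more *serpinh1b* and less *serpinh1a* than replicate 1. Reads of *serpinh1b* per read of *serpinh1a* were 3.01 and 8.34 in control embryos, against 2.67 and 4.60 in mutants, so the balance between the copies overlapped between the groups. Reads that fit both copies were shared out by estimate, which adds an uncertainty to each copy that the counts do not show.

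**Figure D1:**
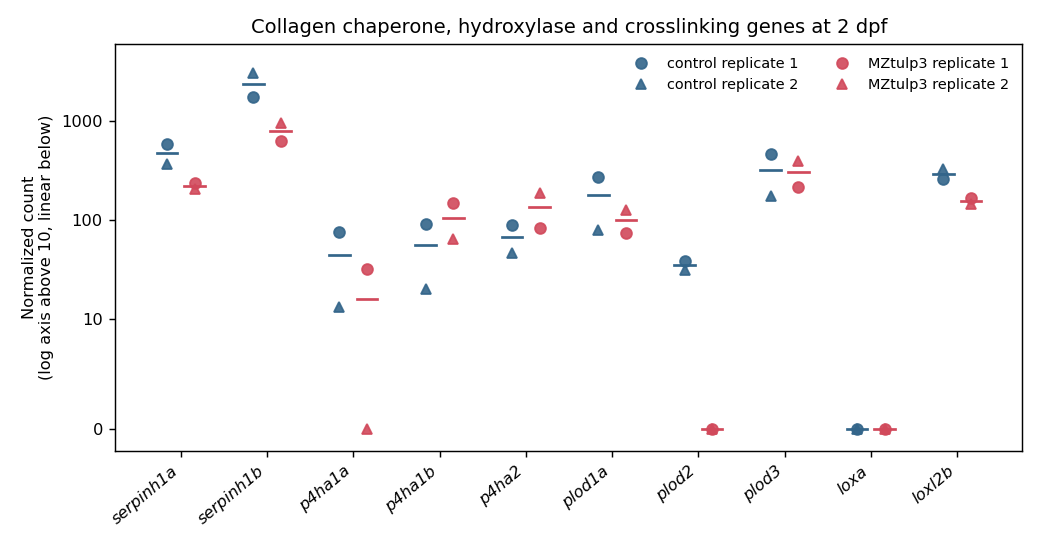
Normalized count of each of the 10 genes (vertical axis, logarithmic above 10 and linear below) in control (blue) and MZtulp3 (red) libraries at 2 dpf, with replicate 1 as circles, replicate 2 as triangles and the group mean as a bar. The red points of serpinh1a, serpinh1b, plod2 and loxl2b lie below the blue ones, while loxa is at 0 in all 4 libraries.

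The α subunits of prolyl 4-hydroxylase carry the catalytic site of the enzyme, and their genes did not share a direction. For *p4ha1a* (ENSDARG00000033537), normalized counts were 75.1 and 13.2 in control embryos, against 32.1 and 0 in mutants. Both groups spread widely, and the log2 fold change of -2.05 had a standard error of equal size (2.05). It ran from -4.10 without MZ*tulp3* replicate 1 to -0.0074 without MZ*tulp3* replicate 2, the library with 0 reads, and by DESeq2 without control replicate 1 it was 0.28. For *p4ha1b* (ENSDARG00000071082) they were 90.5 and 19.8 in control embryos, against 147 and 63.7 in mutants, with a log2 fold change of 1.14 (standard error 1.30). Control replicate 1 lay between the MZ*tulp3* replicates, and the log2 fold change ran from 0.0955 without control replicate 2 to 2.18 without control replicate 1. The third gene, *p4ha2* (ENSDARG00000010085), had 88.6 and 46.2 in control embryos, against 82.4 and 189 in mutants, a log2 fold change of 0.94 (standard error 1.02). Its groups overlapped too, and the value was 0.35 without MZ*tulp3* replicate 2 and became 1.53 when MZ*tulp3* replicate 1 was dropped. The fold changes of the 3 genes thus lay on both sides of 0, none beyond about 1 standard error, and each value rests on at most 160 reads.

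Among the lysyl hydroxylase genes, *plod2* (ENSDARG00000011821), whose product acts on the telopeptides that form stable crosslinks, was read in control embryos alone. The control libraries held 38.5 and 31.0 normalized counts of it (40 and 47 reads), with 0 reads in both MZ*tulp3* replicates. Against the limit of 3 reads per library, which covers counting error only, it was at least 9.97-fold lower in the MZ*tulp3* libraries. Dropping control replicate 1 put the bound at 8.90-fold. *plod2* passed the filter on low values through its control libraries alone, so a gene of this kind had to differ to be tested. For *plod1a* (ENSDARG00000059746), the widely used lysyl hydroxylase, normalized counts were 274 and 78.6 in control embryos, against 74.4 and 125 in mutants. Control replicate 2 lay between the MZ*tulp3* replicates, and the log2 fold change of -0.60 (standard error 0.94) turned to 0.29 without control replicate 1 and was -1.49 without control replicate 2. *plod3* (ENSDARG00000076317) encodes an enzyme that hydroxylates lysines and also adds sugars to them, and in zebrafish it is known as *diwanka*, a gene needed by growing motor axons. It had 464 and 176 normalized counts in control embryos, against 215 and 391 in mutants. Both MZ*tulp3* values fell within the control range, with a log2 fold change of 0.02 (standard error 0.65) that ran from -0.67 without control replicate 2 to 0.72 without control replicate 1, and that was -0.19 when libraries were scaled to reads outside the mitochondrial genes.

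Of the crosslinking genes, *loxl2b* (ENSDARG00000044074), a lysyl oxidase-like gene, had 256 and 327 normalized counts in control embryos, against 166 and 146 in mutants. The groups did not overlap, and the replicates of each group were closer together than the groups were to each other. The means were 292 ± 50.5 and 156 ± 13.9 (SD, n = 2 each), a log2 fold change of -0.89 (standard error 0.57), or 1.85-fold lower. By limma it was below 0 without each library in turn, from -0.71 to -1.06. Its paralogue *loxl2a*, not on the list, had 135 and 41.6 in control embryos, against 131 and 54.3 in mutants, a log2 fold change of 0.16 (standard error 1.15) that was -0.66 when control replicate 2 was dropped and -0.05 when scaled to reads outside the mitochondrial genes. The lysyl oxidase gene *loxa* (ENSDARG00000003259) had 0 reads in all 4 libraries, which allows up to 3 reads in each.

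**Figure D2:**
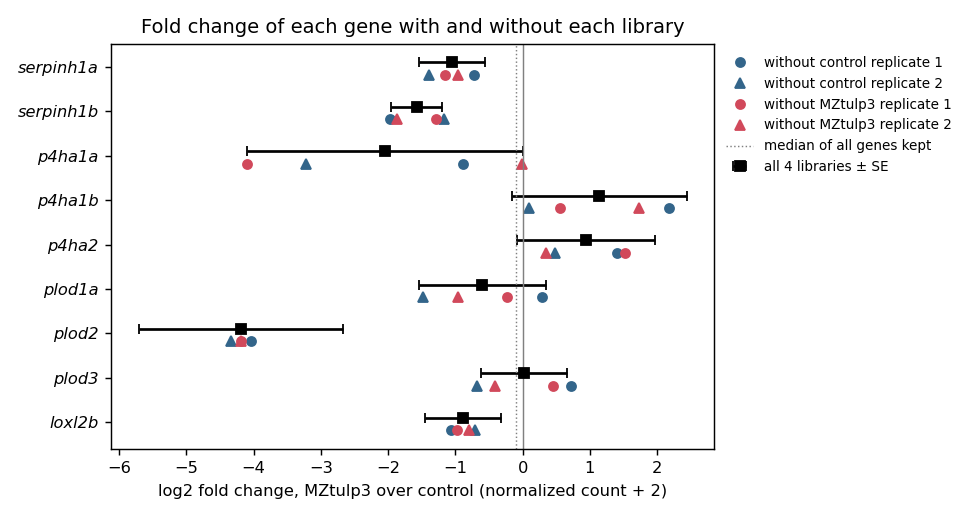
Log2 fold change of the 9 genes with reads (horizontal axis, MZtulp3 over control, on normalized count + 2), as squares with the standard error from all 4 libraries and as coloured symbols with 1 library left out. The symbols of serpinh1a, serpinh1b, p4ha1a, plod2 and loxl2b stay below 0, with p4ha1a reaching -0.0074. Those of p4ha1b and p4ha2 stay above 0, and those of plod1a and plod3 lie on both sides. The fitted value of plod2 depends on the added 2 because both MZtulp3 libraries are at 0.

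Taking the 10 genes together, 9 had reads and passed the filter of 10 normalized counts in at least 2 libraries. In 4 of them each mutant library lay below either control library, as in 23.3% of all 14674 genes kept, and in 0 of them above, as in 20% of all genes. Their log2 fold change was below 0 for 6 of 9, against 52.8% of all genes, and its median was -0.89 against -0.09. Scaling to reads outside the mitochondrial genes moved these medians to -1.10 and -0.29. By DESeq2 without control replicate 1 the median of the 9 was 0.28, with 4 below 0, while limma without that library gave -0.72. By limma's moderated test with Benjamini-Hochberg adjustment over all genes kept, 0 of the 9 were past the threshold of 0.05 on the adjusted p, as were 0% of all genes, and 2 (*serpinh1b* and *plod2*) had an unadjusted p under 0.05 against 12.8% of all genes. edgeR's test on recovered reads called 0% of all genes and 0 of the 9. DESeq2 called *serpinh1b* alone, as lower, while it called 2.27% of the 14343 genes it tested and 1.41% as lower. The call was lost when control replicate 2 was left out (DESeq2 adjusted p = 0.0624) or when MZ*tulp3* replicate 1 was (0.101), and held without either other library (0.0287 and 0.0381). *plod2* had 0 reads in both MZ*tulp3* libraries and passed the filter through its control libraries alone, so its lower place was fixed by the filter. Since the genes were chosen with this comparison known, nothing is read from these shares.

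Summed over the list, 3750 and 6201 reads came from the control libraries and 1381 and 1750 from the mutant libraries. As normalized counts these sums were 3610 and 4094 against 1581 and 2066. *serpinh1b* made up 48.3% and 74.2% of these reads in control embryos, against 39.8% and 45.8% in mutants, so the sum follows this gene in large part. Since reads also depend on the length of a transcript, levels are not compared between genes.

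Collagen chains, the substrate of these proteins, were measured in the same libraries. Of 19 symbols for fibrillar chains, 15 were in the table and 14 were kept, with 9 log2 fold changes above 0 and 5 below and a median of 0.15. By limma 0 of them were past the threshold, as were 0% of all genes, and by DESeq2 0 were, against 2.27% of all genes. An unadjusted p under 0.05 by limma was found for 3 (*col11a2*, *col5a2a* and *col1a2*), against 12.8% of all genes. The type I collagen gene *col1a2* had 1751 and 1460 normalized counts in control embryos, against 2546 and 2761 in mutants, a log2 fold change of 0.73 (standard error 0.27). At the other end stood *col11a2*, a chain of cartilage collagen, with 507 and 594 in control embryos, against 137 and 74.4 in mutants, a log2 fold change of -2.42 (standard error 0.58). *col5a2a*, a chain of the fibrils of skin and other connective tissue, had 236 and 80.5 against 508 and 712 (2.11, standard error 0.64). Without control replicate 2 this was 1.34, and without control replicate 1 it was 2.87. *col2a1a*, the main collagen of notochord and cartilage, had 4079 and 1985 against 2060 and 1317 (-0.79, standard error 0.41), with control replicate 2 between the MZ*tulp3* replicates. The other type I genes, *col1a1a* and *col1a1b*, enter the ratios below and overlapped between the groups. *col1a1a* had 4415 and 2762 against 3825 and 5127 (0.34, standard error 0.32). *col1a1b* had 3289 and 1677 against 3199 and 3606 (0.53, standard error 0.36). Without control replicate 2 their log2 fold changes were 0.0045 and 0.047. The fibrillar chains therefore lay on both sides of 0. Their median was -0.20 without control replicate 2, -0.23 without MZ*tulp3* replicate 1 and -0.07 when scaled to reads outside the mitochondrial genes.

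A ratio of reads within a library does not depend on how libraries are scaled to each other. Per 100 reads of the 3 type I collagen genes *col1a1a*, *col1a1b* and *col1a2*, *serpinh1b* had 18.5 and 51.5 reads in control embryos, against 6.57 and 8.23 in mutants. The ratio was lower in both MZ*tulp3* libraries, by 4.19-fold as a ratio of geometric means, but by 2.51-fold without control replicate 2 and by 7.01-fold without control replicate 1. For *serpinh1a* it was 6.12 and 6.18 in control embryos, against 2.46 and 1.79 in mutants, 2.93-fold lower, with the control libraries nearly equal. Per 100 reads of *col2a1a*, by contrast, *serpinh1b* had 42.8 and 153 in control embryos, against 30.5 and 71.8 in mutants, and these values overlapped. The difference of *serpinh1b* relative to collagen thus depended on the collagen it was set against. *serpinh1a* was set against the type I collagen genes only.

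**Figure D3:**
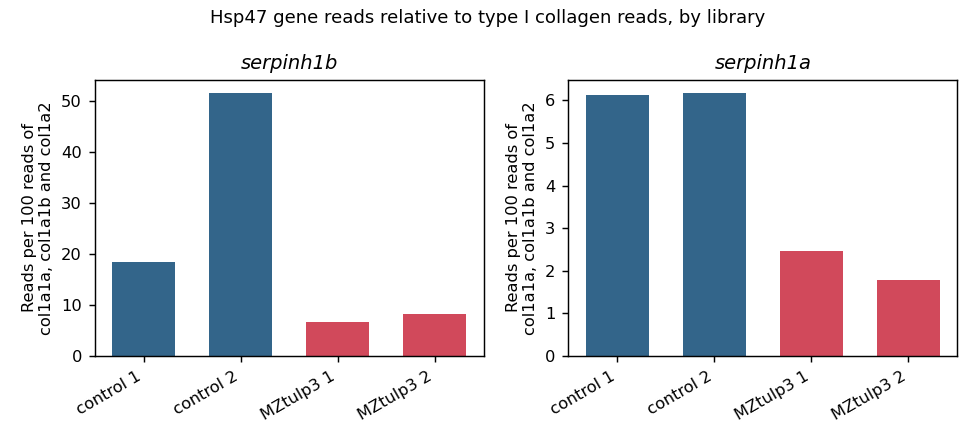
Reads of serpinh1b (left) and serpinh1a (right) per 100 reads of the type I collagen genes col1a1a, col1a1b and col1a2 (vertical axis from 0), 1 bar per library, control in blue and MZtulp3 in red. Both red bars lie below both blue bars in each panel, at 6.57 and 8.23 against 18.5 and 51.5 for serpinh1b and at 2.46 and 1.79 against 6.12 and 6.18 for serpinh1a.

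Other genes of collagen modification, folding and export lay on both sides of 0. Of 53 symbols, 39 were in the table and 30 were kept, 20 of them with a log2 fold change above 0 and 10 below (median 0.20, but -0.07 without control replicate 2 and -0.01 when scaled to reads outside the mitochondrial genes). By limma and by DESeq2 0 were past the threshold, against 0% and 2.27% of all genes. An unadjusted p under 0.05 by limma was found for 1 (*creb3l2*), against 12.8% of all genes. *p4hb*, which encodes the β subunit that every prolyl 4-hydroxylase α subunit needs, had 289 and 572 normalized counts in control embryos, against 199 and 288 in mutants (log2 fold change -0.76, standard error 0.55). Its highest MZ*tulp3* value and lowest control value were nearly equal. *serpinh1b* reads per read of *p4hb* were 6.04 and 5.31 in control embryos, against 3.16 and 3.28 in mutants, close within each group and apart between them. The genes with the lowest log2 fold changes at a mean of at least 100 normalized counts were *p4htma* (-1.0) and *bmp1a* (-0.76). *p4htma* encodes a transmembrane prolyl 4-hydroxylase, for which an action on collagen is not shown here, and *bmp1a* a procollagen C-proteinase. The highest were *pcolcea* (2.04), for an enhancer of that proteinase, and *crtap* (1.06), for a subunit of the prolyl 3-hydroxylase complex. Control replicate 2 was low for both, and without it *pcolcea* was at 0.48 and *crtap* at -0.24. Leaving out 1 library moved *p4htma* to between -1.57 and -0.42 (without MZ*tulp3* replicates 1 and 2) and *bmp1a* to between -1.19 and -0.33 (without control replicates 2 and 1). The groups overlapped for *p4htma*, with 115.5 and 208 in control embryos, against 115.6 and 50.8 in mutants. They did not for *bmp1a*, with 471 and 258 against 176 and 238. The matrix protein gene *sparc* had 2340 and 2681 in control embryos, against 2662 and 2784 in mutants, a log2 fold change of 0.12 (standard error 0.25) that was -0.10 with that scaling. *p4hb*, *sparc* and *loxl2a* were picked after their values were seen.

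General chaperones of the endoplasmic reticulum, the compartment in which Hsp47 works, were looked at as a further list. This list too was drawn up with earlier results of these data known, so its shares are a description. Of 24 genes, 22 were kept, 18 of them with a log2 fold change below 0 and 4 above, with a median of -1.06 against -0.09 over all genes. In 11 of the 22 both MZ*tulp3* libraries lay below both control libraries, against 23.3% of all genes. In 1 (*ppib*) both lay above, against 20% of all genes, and *ppib* stands on the list of other collagen-modifying genes as well. *hsp90b1*, the Hsp90 of this compartment, had 1043 and 1966 normalized counts in control embryos, against 626 and 399 in mutants (log2 fold change -1.51, standard error 0.43). *manf*, a gene that unfolded proteins induce, had 191 and 261 against 69.8 and 69.6 (-1.65, standard error 0.78), and *pdia4*, a disulphide isomerase gene, had 315 and 491 against 120 and 227 (-1.24, standard error 0.59). The best known chaperone of the compartment, *hspa5*, overlapped between the groups, with 1025 and 946 against 479 and 1264. Its log2 fold change of -0.34 became 0.36 without MZ*tulp3* replicate 1. By limma 0 of the 22 were past the threshold, as were 0% of all genes, and by DESeq2 0 were, against 2.27% of all genes. An unadjusted p under 0.05 by limma was found for 1 (*hsp90b1*), against 12.8% of all genes. These examples were picked after their values were seen. The median of the list ran from -0.71 without MZ*tulp3* replicate 2 to -1.31 without control replicate 1.

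**Figure D4:**
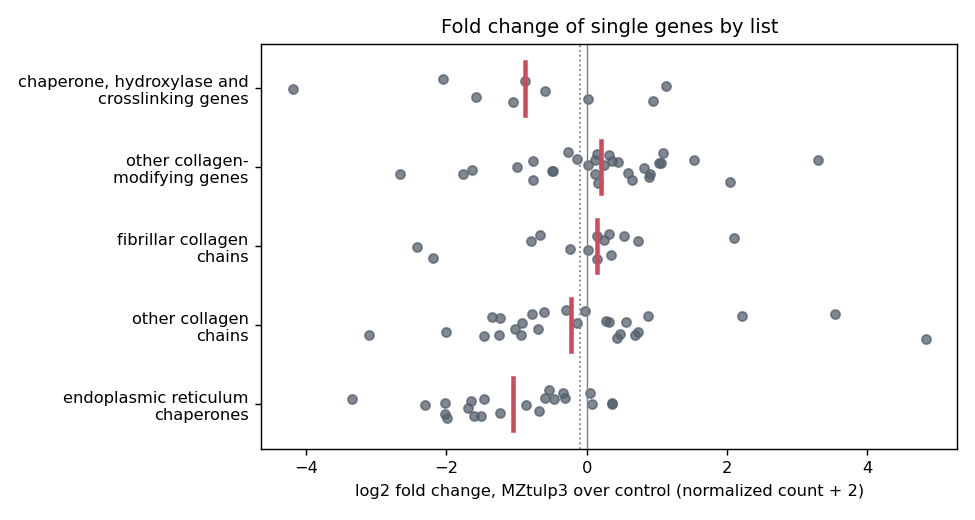
Log2 fold change (horizontal axis, MZtulp3 over control, on normalized count + 2) of each kept gene of 5 lists, 1 dot per gene, with the median of the list in red and that of all genes kept as a dotted line. The medians of the chaperone, hydroxylase and crosslinking genes (-0.89) and of the endoplasmic reticulum chaperones (-1.06) lie to the left, and those of the other collagen-modifying genes (0.20) and of the fibrillar chains (0.15) near 0.

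The genes whose pattern over the 4 libraries was most like that of *serpinh1b* were found by the root mean square difference of log2 values centred on each gene's mean, among 7956 genes with a mean of at least 100 normalized counts. The closest was *tmtc4*, which encodes a membrane protein of the endoplasmic reticulum, at 0.0617 on the log2 scale. Its normalized counts were 669 and 1162 in control embryos, against 250 and 334 in mutants. Next came *dnajc3a*, a co-chaperone gene on the list above, at 0.0662, and *clint1b*, at 0.0708, followed by LOC799481 (0.0789) and ENSDARG00000086037 (0.0815). In the library with the fewest reads, counting error was 6.77% of the value for *tmtc4* and 11.2% to 17.4% for the genes after it. Nothing is therefore read from the order of these genes. Within the list of 10, *loxl2b* ranked 471 (0.47) and *serpinh1a* 1299 (0.64) among the 7956. With 4 libraries in 2 groups this likeness is a description.

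Markers of tissues were read in the same libraries, where 52.8% of all genes had a log2 fold change below 0. By limma 0 genes of any marker list were past the threshold, with 2 of 11 notochord, 4 of 10 cartilage, 1 of 14 fin fold and skin, 7 of 11 epidermal, 2 of 12 muscle and 4 of 9 neuron markers at an unadjusted p under 0.05, against 12.8% of all genes. DESeq2 called 5 epidermal markers as higher and 2 muscle and 2 neuron markers as lower, against 2.27% of all genes in either direction. All 11 epidermal markers had a log2 fold change above 0, with a median of 1.22 and a summed 197149 to 274685 normalized counts in control embryos, against 511800 to 612473 in mutants. Of 9 neuron markers, 8 were below 0 (median -1.20), with sums of 14124 to 19949 in control embryos, against 7358 to 11415 in mutants. Of 12 skeletal muscle markers, 9 were above 0 (median 0.54, and -0.02 without control replicate 2), and their sums overlapped, with 394485 and 185207 in control embryos, against 488871 and 298475 in mutants. Of the tissues that make much collagen, notochord markers had 9 of 11 below 0 (median -0.79), and *noto* and *loxl5b* were at 0 in every library. The notochord sums overlapped, with 8654 and 4614 in control embryos, against 4722 and 3378 in mutants. Of these sums *col2a1a* alone gave 4079 and 1985 against 2060 and 1317, and the median is the log2 fold change of *col2a1a*. Cartilage markers had 7 of 10 below 0 (median -0.49), with sums of 2074 to 2155 in control embryos, against 2532 to 2929 in mutants, and *ucmaa* at 0. Their sums and their median thus differed in direction, and the median was 0.58 without MZ*tulp3* replicate 1. For markers of the fin fold and skin mesenchyme, 9 of 14 were above 0 (median 0.38), with sums of 3437 to 4065 and 4838 to 5827. The part of these differences in the values of the collagen-processing genes was not tested. *col2a1a*, *col9a1a*, *col11a2*, *col10a1a*, *col8a1a*, *col9a2*, *loxl5b* and *bmp1a* stand on these marker lists and on lists of collagen or collagen-modifying genes alike.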

How the data were processed

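Whole-embryo RNA came from 2 control and 2 MZ*tulp3* libraries at 2 dpf. The authors trimmed the reads with Trim Galore, aligned them with STAR to GRCz10, quantified genes with RSEM and normalized them with DESeq2. The signal values they deposited are named counts, but 100% are whole multiples (within 0.001 of a read) of 1 constant per library. They are thus reads divided by size factors of 1.04, 1.51, 0.873 and 0.847. Columns of regularized logarithms (4) and of the authors' fold changes and p-values were not used.

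For the comparison, genes with at least 10 normalized counts in at least 2 libraries were kept (14674) and tested with limma 3.58.1 (trend) after adding 2 to the normalized count and taking log2, since the values are not raw counts, with Benjamini-Hochberg adjustment and a threshold of 0.05. Whole reads were recovered and entered in edgeR 4.0.16, DESeq2 1.42.0 and limma-voom (R 4.3.3). Alternatives covered these tests, TMM scaling, scaling to reads outside the mitochondrial genes, pseudocounts, filters, a replicate term and leaving out each library. DESeq2 and the ratios of reads without each library were added after the values were seen. Named genes were all 10 of the list and, in 2 other lists, the 2 highest and 2 lowest at a mean of at least 100 normalized counts, beside examples marked as picked later. Members and lists were chosen with earlier results of these data known. Listed symbols were matched exactly to the table's own, and older aliases on the lists without a match went unused. Replicates are called biological in the labels. No sequences are shown.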

Additional observations from a re-analysis of the deposited data

How the results depend on the processing

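By limma 0 genes of the whole table were past the threshold, as by edgeR, with TMM scaling, scaling to reads outside the mitochondrial genes, pseudocounts of 0.5 and 10 and no filter, while 1873 (limma) and 1427 (edgeR) had an unadjusted p under 0.05. DESeq2 called 326, limma-voom 13, and limma 112 when at least 10 normalized counts were required in every library. Leaving out 1 library gave 0 to 1151 (0 by limma, and by DESeq2 263 and 797 without control replicates 1 and 2, and 1151 and 216 without MZ*tulp3* replicates 1 and 2). The replicate number as a block gave 329. Same-numbered replicates did not deviate together over all genes (correlation -0.00286 over 14674 genes). The labels do not say whether they share more than a number. This correlation cannot decide it, since each group gives only the difference between replicates 1 and 2. The median log2 fold change of the collagen-processing genes was -0.89, and -0.60 to -1.10 over the other settings that used all 4 libraries. Leaving out 1 library gave -1.18 to 0.28, the last by DESeq2 without control replicate 1, where *p4ha1a* (0.28) and *plod1a* (0.34) turned direction. Scaling to reads outside the mitochondrial genes moved the median of all genes from -0.09 to -0.29 and that of the list to -1.10. *plod3* changed direction under it (-0.19), as under DESeq2 (-0.08) and edgeR (-0.09). *serpinh1b* was past the threshold by DESeq2 (adjusted p = 0.0259) and by limma with at least 10 in every library (0.0392) or with the block (0.00151), and its adjusted p reached 0.483 over the other tests and filters. Depth limits *p4ha1a*, *p4ha1b* and *plod2*, at no more than 128 reads in any library.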

Other observations

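Several hydroxylase and crosslinking genes are known in mammals as genes that low oxygen induces, so a list of hypoxia response genes was looked at beside them. Whether low oxygen had a part in these values was not tested. Of 34 symbols, 27 genes were kept, 14 with a log2 fold change above 0 and 13 below, with a median of 0.04 against -0.09 over all genes. Both MZ*tulp3* libraries lay above both control libraries in 7 of the 27, against 20% of all genes. They lay below in 2, against 23.3%. By limma 0 were past the threshold, as were 0% of all genes, and by DESeq2 0 were, against 2.27% of all genes. An unadjusted p under 0.05 by limma was found for 2 (*ndrg1a* and *ndrg1b*), against 12.8% of all genes. The copies *ndrg1a* and *ndrg1b* stood in opposite directions: *ndrg1a* had 112 and 104 normalized counts in control embryos, against 390 and 552 in mutants, and *ndrg1b* had 250 and 397 against 46.9 and 87.3. The glycolysis genes *ldha* and *pgk1* had 886 and 951 against 1060 and 1258, and 1378 and 772 against 1650 and 1336. These examples were picked after their values were seen.

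Of the collagen chains outside the fibrillar group, 26 genes were kept, 11 above 0 and 15 below, with a median log2 fold change of -0.22 that was 0.12 when MZ*tulp3* replicate 1 was dropped and 0.16 when replicate 2 was. *col17a1a*, the collagen of the junction between epidermis and basement membrane, had 1.93 and 13.9 normalized counts in control embryos, against 215 and 233 in mutants. Its log2 fold change of 4.84 became 3.83 when control replicate 1 was dropped and reached 5.85 when control replicate 2 was. *col9a3*, a collagen of cartilage and notochord, had 1349 and 938 against 420 and 394. *creb3l2*, which in mammals and zebrafish encodes a transcription factor for secretory genes of cartilage, had 7.70 and 21.8 against 158 and 137. These genes were also picked after their values were seen, and by limma 0 of the 26 chains were past the threshold, with 2 (*col17a1a* and *col9a3*) at an unadjusted p under 0.05 against 12.8% of all genes. DESeq2 called 1 of the 26, *col17a1a*, as higher in mutants, while it called 2.27% of all genes, and nothing about the chains as a group is read from these counts.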
